A study of Schmidtea mediterranea with 24 samples.

Results

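Transcripts of 3 markers along the path from stem cell to skin were followed in single planarians: smedwi-1, carried by contig dd_Smed_v4_659_0_1, prog-1, carried by dd_Smed_v4_332_0_1, and AGAT-1, carried by dd_Smed_v4_920_0_1. They were taken by contig ID from a table of 26563 contigs, and all 3 were present and passed the filter on low counts in each comparison. The deposited files hold contig IDs without gene names, so these names are the published ones for the IDs and were not checked against sequence. No other contig of the table shares a component number with any of the 3.

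Planarians keep and regrow their tissues from neoblasts, the dividing somatic cells of the adult. smedwi-1 encodes a PIWI-class protein, and its transcript is the standard marker of neoblasts. Neoblasts committed to the epidermis leave the cell cycle and pass through a series of progenitor states while moving outward to the body surface, with prog-1 marking an early state and AGAT-1, a homologue of glycine amidinotransferase, a later one. When neoblasts are destroyed by irradiation, these transcripts are lost in that order.

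The animals were intact asexual Schmidtea mediterranea of the strain CIW4, fed double-stranded RNA (dsRNA) in liver to silence a gene by RNA interference (RNAi). The groups were 7 nkx1-1 RNAi animals and 5 controls after 12 feedings in 9 weeks, and 6 myoD RNAi animals and 6 controls after 10 feedings in 7 weeks. Control animals in both schedules received dsRNA of unc-22, a Caenorhabditis elegans gene, so every animal was fed dsRNA. nkx1-1 and myoD encode transcription factors needed for circular and longitudinal fibres of the body-wall muscle, and the series asked what changes in uninjured animals when either is inhibited. Polyadenylated RNA of each animal made 1 library, although the extraction text of the labels speaks of pooled wounds from tail fragments. If that text applies, the spread below is not one between single intact animals.

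Libraries held 9757113 to 18136698 counts, the lowest in nkx1-1 RNAi replicate 2. Each of the 3 contigs had 2687 to 14179 counts per library, so counting error alone was 0.840% to 1.93% of a value. Levels below are counts per 1000000 counts of the library (CPM) after scaling all 24 libraries by trimmed mean of M values (TMM). They are not divided by contig length, so levels of different contigs are not compared. Fewer cells of a type and less transcript per cell cannot be told apart in RNA of whole animals. Contigs of the targeted genes and markers of other cell types carry no names in these files, so neither the knock-down nor the cell make-up was measured here. A pair of libraries stood apart. Control replicate 3 of the 12-feeding schedule had a score of 10.8 on the axis with most variance, beside −25.5 to −10.2 in the other 12-feeding animals and 11.4 to 19.8 in the 10-feeding animals. In nkx1-1 RNAi replicate 1 a single contig, dd_Smed_v4_4_1_1, took 6.79% of all counts, beside 0.0393% to 0.391% in replicates 2 to 7 of that group. Results that use these libraries are given with and without them where they move.

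The marker of neoblasts was higher in 11 of the 12 animals of the longer schedule than in every animal of the shorter one. How many contigs share this pattern was not counted. smedwi-1 had 733, 756 and 807 CPM as lowest, median and highest value in nkx1-1 RNAi animals, against 888, 791, 501, 682 and 785 CPM in replicates 1 to 5 of their controls. It had 456, 499 and 529 CPM as lowest, median and highest value in myoD RNAi animals, against 471, 483 and 515 CPM in their controls. Within each schedule the RNAi and control ranges overlapped, and the 501 CPM of control replicate 3 lay inside the range of the 10-feeding controls.

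The early epidermal marker separated the schedules further. prog-1 had 542, 611 and 703 CPM as lowest, median and highest value in nkx1-1 RNAi animals, against 634, 813, 366, 578 and 814 CPM in replicates 1 to 5 of their controls. It had 176, 230 and 278 CPM as lowest, median and highest value in myoD RNAi animals, against 197, 222 and 248 CPM in their controls. All 12 animals of the longer schedule were above all 12 of the shorter one, including control replicate 3, which had the lowest value of its schedule. Among all 17159 contigs kept over 24 libraries, 4.34% were likewise higher in every 12-feeding animal.

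AGAT-1, the later epidermal marker, had 324, 368 and 413 CPM as lowest, median and highest value in nkx1-1 RNAi animals, against 375, 445, 273, 385 and 438 CPM in replicates 1 to 5 of their controls. It had 210, 246 and 284 CPM as lowest, median and highest value in myoD RNAi animals, against 240, 254 and 271 CPM in their controls. The 273 CPM of control replicate 3 was above every 10-feeding control but below the highest myoD RNAi animal, so the 2 schedules overlapped for AGAT-1 through this single library. The number of contigs that overlap through it alone was not counted.

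**Figure D1:**
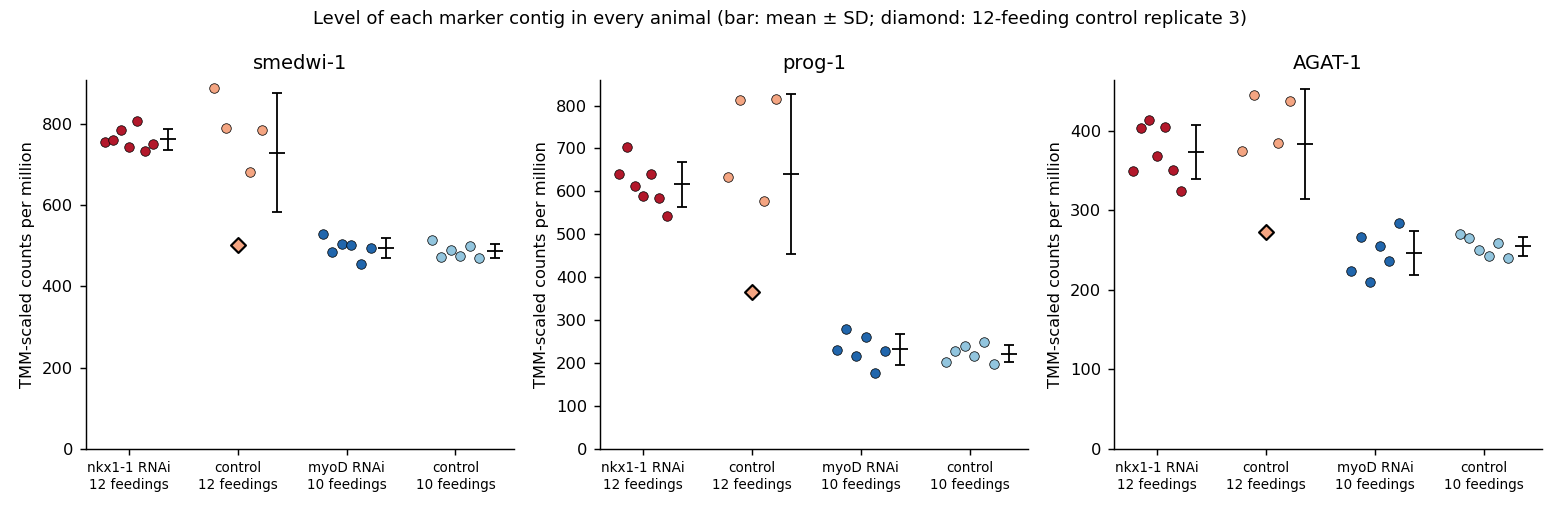
TMM-scaled CPM (vertical axes from 0) of smedwi-1, prog-1 and AGAT-1 in each of the 24 animals, by group, with the group mean ± SD as a bar and 12-feeding control replicate 3 as a diamond. RNAi and control animals of a schedule share their range in all 3 panels, and all 12-feeding animals lie above all 10-feeding animals for prog-1.

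No change of the 3 transcripts was called after either RNAi treatment, and the differences were within the spread between animals. After nkx1-1 RNAi, smedwi-1 averaged 763 ± 25.3 CPM (SD, n = 7), against 729 ± 147 CPM (SD, n = 5) in controls. The log2 fold change was 0.065 ± 0.10 (SE; adjusted p of edgeR 0.762). The 95% confidence interval of that difference ran from −10.1% to 21.7% of the control level. prog-1 averaged 616 ± 51.8 CPM (SD, n = 7) after nkx1-1 RNAi and 641 ± 187 CPM (SD, n = 5) in controls, with −0.056 ± 0.15 on the log2 scale (SE; adjusted p of edgeR 0.868) and an interval from −22.5% to 19.4%. AGAT-1 averaged 373 ± 34.3 CPM (SD, n = 7) after nkx1-1 RNAi and 383 ± 69.0 CPM (SD, n = 5) in controls, with −0.036 ± 0.10 on the log2 scale (SE; adjusted p of edgeR 0.881) and an interval from −16.2% to 13.6%. Among all 16598 contigs tested in this comparison 3.87% were called at an adjusted p under 0.05, and of the 3 markers 0 were called by edgeR, DESeq2 or voom, also with 0 under an unadjusted p of 0.05.

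In this schedule the controls varied more among themselves than the nkx1-1 RNAi animals did, which was not tested. The coefficient of variation of smedwi-1 was 3.32% in nkx1-1 RNAi animals and 20.1% in their controls, of which 10.7% was left among the 4 controls without replicate 3. For prog-1 it was 8.41% in nkx1-1 RNAi animals and 29.1% in controls (17.2% without replicate 3), and for AGAT-1 9.18% in nkx1-1 RNAi animals and 18.0% in controls (8.71% without replicate 3). Without control replicate 3, the log2 fold changes after nkx1-1 RNAi were −0.044 ± 0.065 (SE) for smedwi-1, −0.20 ± 0.095 for prog-1 and −0.14 ± 0.077 for AGAT-1 (edgeR adjusted p = 0.771, 0.267 and 0.362). The unadjusted edgeR p of prog-1 was then 0.0501. With replicate 3 kept and control replicate 2 left out instead, prog-1 and AGAT-1 were 0.044 and 0.023. The sign thus depended on which control was left out, and no fit left out both.

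After myoD RNAi the estimates were as small and more precise. smedwi-1 averaged 496 ± 24.2 CPM after myoD RNAi and 487 ± 17.6 CPM in controls (SD, n = 6 each), which is 0.033 ± 0.041 on the log2 scale (SE; adjusted p of edgeR 0.752), with an interval from −3.58% to 8.60% of the control level. prog-1 averaged 232 ± 35.7 CPM after myoD RNAi and 222 ± 20.6 CPM in controls (SD, n = 6 each), which is 0.075 ± 0.089 on the log2 scale (SE; adjusted p of edgeR 0.741), with an interval from −7.44% to 19.9%. AGAT-1 averaged 246 ± 27.7 CPM after myoD RNAi and 254 ± 12.4 CPM in controls (SD, n = 6 each), which is −0.041 ± 0.062 on the log2 scale (SE; adjusted p of edgeR 0.810), with an interval from −11.2% to 6.37%. Here 7.53% of 16352 contigs were called, and again 0 of the 3 markers by edgeR, DESeq2 or voom, with 0 under an unadjusted p of 0.05.

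The authors' deposited table for nkx1-1 RNAi lists fold changes of 1.04 for smedwi-1, 0.959 for prog-1 and 0.972 for AGAT-1. For myoD RNAi, the authors' deposited table lists 1.02 for smedwi-1, 1.05 for prog-1 and 0.969 for AGAT-1, and every adjusted p of these 6 entries is 1.

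No difference between the effects of the RNAi treatments was called either. The nkx1-1 effect minus the myoD effect, tested over all 24 libraries, was 0.040 ± 0.11 (SE; edgeR adjusted p = 0.920) for smedwi-1 on the log2 scale. It was −0.12 ± 0.18 (SE; edgeR adjusted p = 0.823) for prog-1 and 0.013 ± 0.13 (SE; edgeR adjusted p = 0.981) for AGAT-1. The interval of the difference reached from −0.50 to 0.26 for prog-1, the widest of the 3. Without the libraries that stood apart, the difference for prog-1 was −0.30 ± 0.14 (SE; unadjusted p = 0.0490, edgeR adjusted p = 0.391). With all 24 libraries kept, 0.425% of 17159 contigs were called by edgeR. Of the 3 markers, 0 were then called by edgeR, DESeq2 or voom, with 0 under an unadjusted p of 0.05. In this contrast the RNAi target, the feedings, the weeks and any difference in cohort or handling all change together and cannot be told apart.

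**Figure D2:**
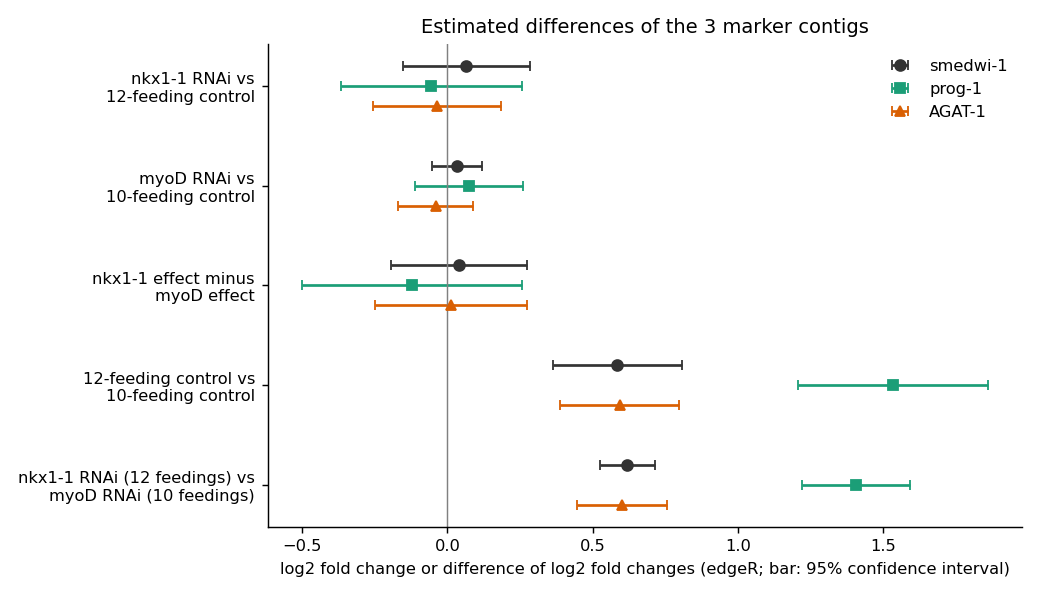
Log2 fold changes of the 3 contigs in 4 comparisons of groups, and the difference of the RNAi effects, with 95% confidence intervals from edgeR (horizontal axis on the log2 scale). Every interval of an RNAi effect and of their difference includes 0, while both comparisons between schedules lie above 0, with prog-1 at 1.54 and 1.41.

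All 3 transcripts were higher in 12-feeding than in 10-feeding controls, prog-1 by the most. prog-1 averaged 641 ± 187 CPM (SD, n = 5) in 12-feeding controls and 222 ± 20.6 CPM (SD, n = 6) in 10-feeding controls, a 2.90-fold difference with a 95% interval from 2.31 to 3.64 (log2 fold change 1.54 ± 0.15, SE; edgeR adjusted p = 1.06e-05). smedwi-1 averaged 729 ± 147 CPM (SD, n = 5) in 12-feeding controls and 487 ± 17.6 CPM (SD, n = 6) in 10-feeding controls, 50.1% higher with an interval from 28.6% to 75.1% (log2 fold change 0.59 ± 0.11, SE; edgeR adjusted p = 0.000612). AGAT-1 averaged 383 ± 69.0 CPM (SD, n = 5) in 12-feeding controls and 254 ± 12.4 CPM (SD, n = 6) in 10-feeding controls, 50.8% higher with an interval from 30.8% to 73.9% (log2 fold change 0.59 ± 0.097, SE; edgeR adjusted p = 0.000303). For prog-1 and AGAT-1 every 12-feeding control was above every 10-feeding control, as for 8.42% of contigs, and for smedwi-1 it was 4 of 5. For AGAT-1 the gap was narrow, with 272.7 CPM in 12-feeding control replicate 3 against 270.7 CPM in 10-feeding control replicate 1. Counting error of these values was 1.56% and 1.66%, more than the gap.

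Many contigs differed between the schedules. Of 16262 contigs tested, 35.1% were called between the controls, with 18.2% higher in the 12-feeding animals. The median log2 fold change of a contig called higher was 0.34, and 19 of the 2965 such contigs had a larger one than prog-1, against 504 for smedwi-1 and 489 for AGAT-1. Number of feedings and weeks of treatment differ together between these controls and cannot be told apart. Any difference in cohort or handling between the schedules goes with them and cannot be told apart either.

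**Figure D3:**
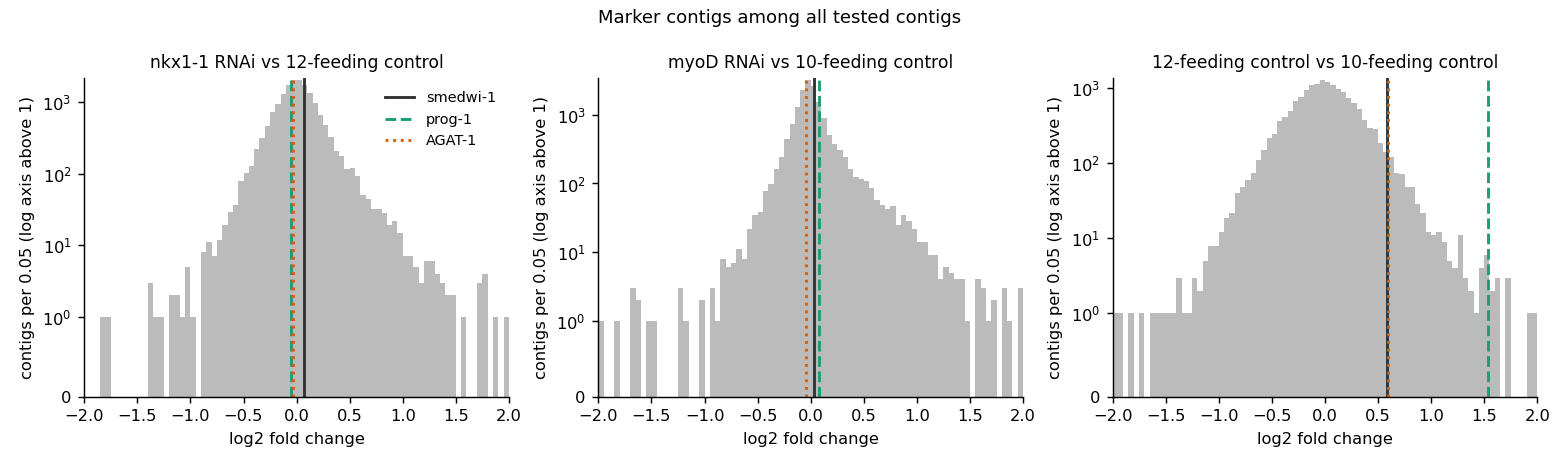
Number of tested contigs per 0.05 of log2 fold change (vertical axes logarithmic above 1, horizontal axes drawn from −2 to 2, contigs beyond left out) in both RNAi comparisons and between the controls of both schedules, with the 3 markers as lines. The markers sit near the middle in the RNAi panels, and prog-1 lies in the far right tail of the panel for controls.

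The same differences were measured in animals that this comparison had not used. Between nkx1-1 RNAi animals and myoD RNAi animals, a contrast added after the control result was known, prog-1 differed 2.65-fold (interval 2.33 to 3.02; edgeR adjusted p = 2.41e-09). smedwi-1 differed 1.54-fold (interval 1.44 to 1.64; edgeR adjusted p = 1.04e-08) and AGAT-1 1.52-fold (interval 1.36 to 1.69; edgeR adjusted p = 3.05e-06). For all 3 markers every nkx1-1 RNAi animal was above every myoD RNAi animal, as for 13.8% of 16597 contigs. In that contrast the RNAi target changes along with the schedule and any difference in cohort or handling, and 24.4% of contigs were called higher. Without replicate 3, the log2 fold changes between 12-feeding and 10-feeding controls were 1.68 ± 0.095 (SE) for prog-1, 0.69 ± 0.060 for smedwi-1 and 0.69 ± 0.057 for AGAT-1 (edgeR adjusted p = 5.77e-09, 2.79e-07 and 1.65e-07).

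The balance between the markers was read from ratios of their counts in 1 library, in which library scaling cancels. These ratios depend on contig length, so only their change between animals is described, and no test was made on them. The ratio of prog-1 to smedwi-1 counts was 0.808 ± 0.0635 (SD, n = 7) in nkx1-1 RNAi animals, against 0.871 ± 0.156 (SD, n = 5) in their controls. It was 0.468 ± 0.0679 in myoD RNAi animals, against 0.455 ± 0.0428 in their controls (SD, n = 6 each). The 12 animals of the longer schedule ranged from 0.714 to 1.04 and the 12 of the shorter one from 0.386 to 0.574, without overlap. The prog-1 level alone already separated the schedules, as for 4.34% of contigs. How many contigs would do so as a ratio to smedwi-1 was not counted. On the log2 scale the mean ratio was 0.92 higher in 12-feeding than in 10-feeding controls and 0.80 higher in nkx1-1 than in myoD RNAi animals.

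The ratio of AGAT-1 to smedwi-1 counts had no such step. It was 0.489 ± 0.0354 (SD, n = 7) in nkx1-1 RNAi animals and 0.530 ± 0.0610 (SD, n = 5) in their controls, and 0.498 ± 0.0653 in myoD RNAi animals and 0.522 ± 0.0205 in their controls (SD, n = 6 each). Its range was 0.422 to 0.565 in the longer schedule and 0.417 to 0.573 in the shorter one, and the mean log2 ratio was 0.014 higher in 12-feeding than in 10-feeding controls. The ratio of AGAT-1 to prog-1 counts follows from the other ratios and is no separate result. It was 0.538 to 0.745 in the 12-feeding animals and 0.958 to 1.35 in the 10-feeding animals.

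Control replicate 3 of the longer schedule combined features of both. Its smedwi-1 and AGAT-1 levels of 501 and 273 CPM were at or just above those of 10-feeding controls. Its prog-1 level of 366 CPM lay between the schedules, and its ratio of prog-1 to smedwi-1 counts, 0.730, was inside the 12-feeding range.

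**Figure D4:**
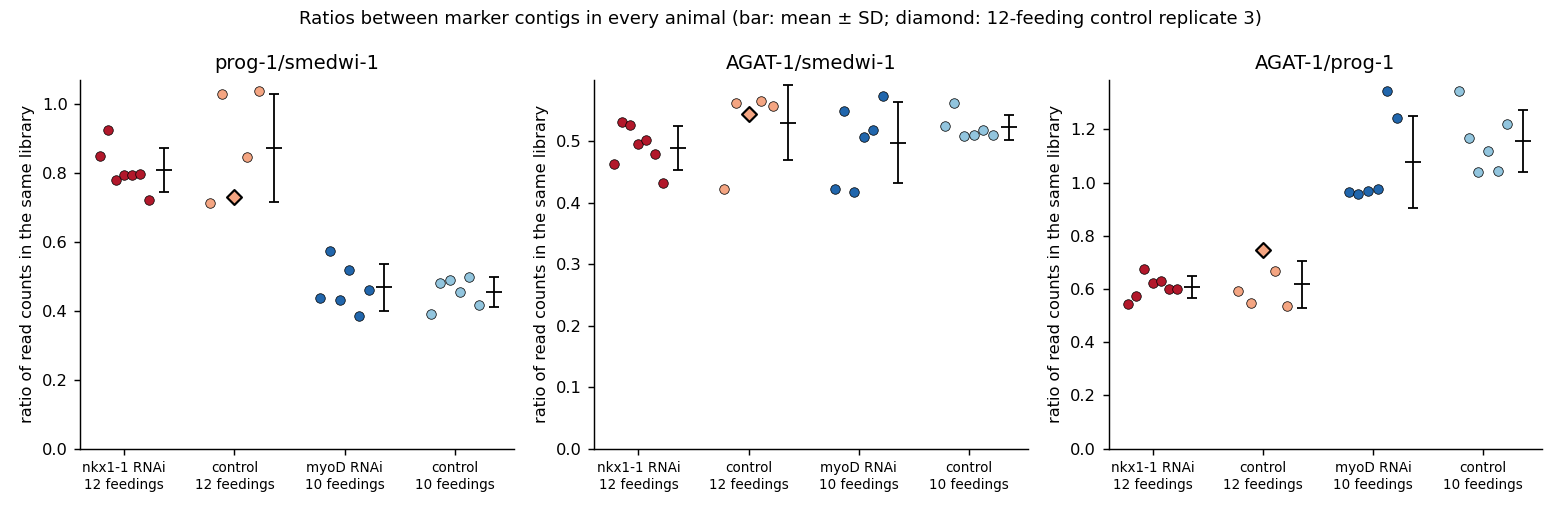
Ratios of read counts of 2 markers in the same library (vertical axes from 0) for each of the 24 animals by group, with the group mean ± SD as a bar and 12-feeding control replicate 3 as a diamond. The schedules do not overlap in the ratios that contain prog-1, and they cover nearly the same range in AGAT-1 to smedwi-1.

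Among animals of 1 group, the 3 markers varied by different amounts. In the 12 animals of the longer schedule the SD of log2 CPM about the group means was 0.20 for smedwi-1, 0.31 for prog-1 and 0.21 for AGAT-1, with 59.2%, 80.3% and 60.0% of contigs below in that order and 0.17 in the median contig. In the 11 of them other than control replicate 3, it was 0.098 for smedwi-1, 0.18 for prog-1 and 0.13 for AGAT-1. For smedwi-1, 20.9% of contigs had a smaller SD in these animals, whose median contig had 0.16, against 54.5% for prog-1 and 38.0% for AGAT-1. In the 12 animals of the shorter schedule the SD was 0.062 for smedwi-1, 0.19 for prog-1 and 0.13 for AGAT-1, with 9.69%, 65.3% and 45.4% of contigs below in that order, and 0.14 in the median contig. These shares are over all contigs kept, not matched on level. Contigs with few counts have larger counting error, so the shares do not compare the markers with contigs of like level.

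Within single groups, no correlation between markers passed the exact permutation test. Over 9 relations, in nkx1-1 RNAi animals, myoD RNAi animals and 10-feeding controls, Pearson's r of log2 CPM ran from −0.26 to 0.70 (exact permutation p adjusted over the 9 relations at least 0.398). The highest was smedwi-1 with AGAT-1 in the 7 nkx1-1 RNAi animals, with r = 0.70 (two-sided exact permutation p = 0.0885, adjusted 0.398) and Spearman's rho = 0.68 (exact permutation p = 0.110, adjusted 0.525), and r was 0.33 without the 2 animals farthest from the median of smedwi-1. prog-1 with AGAT-1 in the same animals had r = 0.69 (two-sided exact permutation p = 0.0829, adjusted 0.398) and rho = 0.43 (exact permutation p = 0.354, adjusted 0.629), with r = 0.27 without the 2 animals farthest from the median of prog-1. Groups of 6 or 7 animals give such coefficients wide errors, and no test was run in the 5 controls of the longer schedule, since at least 6 animals were required. Pooled over 24 animals after centring each group, as a description without a test, r was 0.77 for prog-1 with AGAT-1, 0.73 for smedwi-1 with prog-1 and 0.62 for smedwi-1 with AGAT-1. Without 12-feeding control replicate 3 it was 0.54, 0.32 and 0.10 in that order, and over the 12 animals of the shorter schedule alone 0.36, 0.37 and −0.050. In the plot of markers against smedwi-1 the points form 2 clusters by schedule, so no r over uncentred values of all animals is given.

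**Figure D5:**
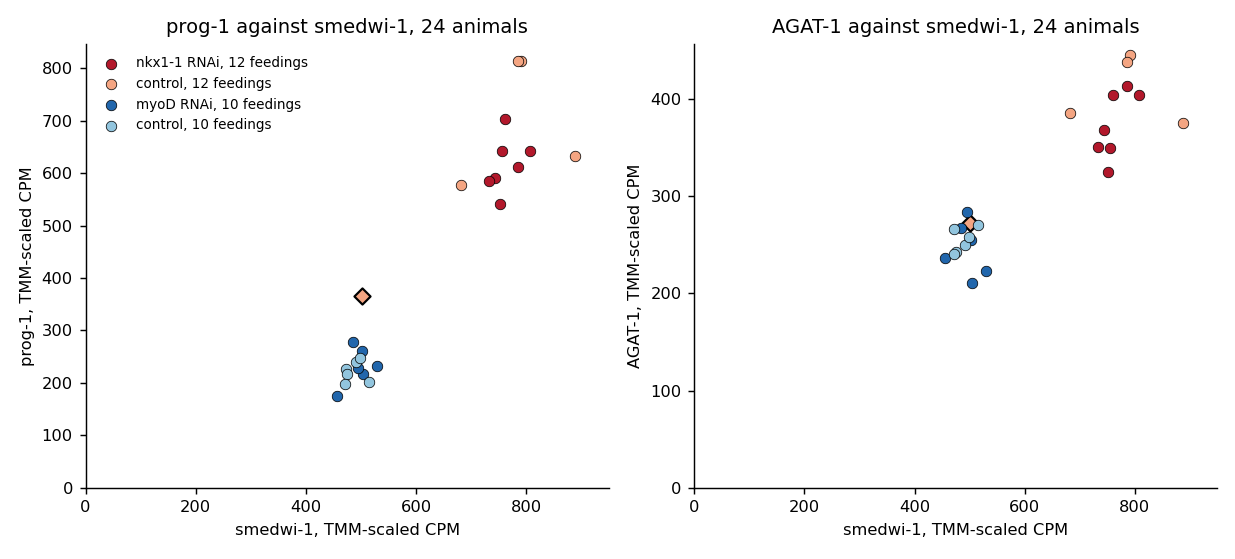
prog-1 (left) and AGAT-1 (right) against smedwi-1 in 24 animals, both axes in TMM-scaled CPM from 0, coloured by group, with 12-feeding control replicate 3 as a diamond. The 12-feeding animals form a cluster of higher values, and the diamond lies between the clusters for prog-1 and within the 10-feeding cluster for AGAT-1.

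Contigs with the most similar profiles were sought by Pearson's r of log2 CPM centred within each group over the 24 animals, among contigs with a mean of at least 5 CPM. All values of an animal share 1 library and its scaling, so these r are descriptions. The contig most like smedwi-1 was dd_Smed_v4_756_0_1 (r = 0.95), followed by dd_Smed_v4_1258_0_1 (r = 0.91). The contig most like prog-1 was dd_Smed_v4_478_0_1 (r = 0.96), followed by dd_Smed_v4_742_0_1 (r = 0.92). The contig most like AGAT-1 was dd_Smed_v4_899_0_1 (r = 0.97), followed by dd_Smed_v4_291_0_1 (r = 0.93). Over the 23 animals without 12-feeding control replicate 3, dd_Smed_v4_478_0_1 stayed closest to prog-1 (r = 0.91) and dd_Smed_v4_899_0_1 closest to AGAT-1 (r = 0.95), while dd_Smed_v4_756_0_1 came next after dd_Smed_v4_13727_0_1 for smedwi-1 (r = 0.82 and 0.90).

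The contigs closest over 24 animals also differed between schedules. The centring took out the group means, but the deviation of 12-feeding control replicate 3 stayed in the profiles. Between 12-feeding and 10-feeding controls, dd_Smed_v4_478_0_1 had its log2 fold change at 1.28 ± 0.14 (SE; adjusted p of edgeR 1.65e-05), beside 1.54 for prog-1. That of dd_Smed_v4_756_0_1 was 0.48 ± 0.074 (SE; edgeR adjusted p = 0.000190), beside 0.59 for smedwi-1, and that of dd_Smed_v4_899_0_1 was 0.56 ± 0.092 (SE; edgeR adjusted p = 0.000308), beside 0.59 for AGAT-1. The next contig for prog-1, dd_Smed_v4_742_0_1, was at 0.40 ± 0.062 (SE; edgeR adjusted p = 0.000205). Over the 12 animals of the shorter schedule alone, other contigs came closest to prog-1 and smedwi-1, with smaller differences between the controls: dd_Smed_v4_3352_0_1 for prog-1, at 0.17 ± 0.054 (SE; edgeR adjusted p = 0.0203), and dd_Smed_v4_11717_0_1 for smedwi-1, at 0.19 ± 0.085 (SE; edgeR adjusted p = 0.0894), which was not called. dd_Smed_v4_899_0_1 was closest to AGAT-1 there too (r = 0.94). None of dd_Smed_v4_478_0_1, dd_Smed_v4_756_0_1 and dd_Smed_v4_899_0_1 was called after nkx1-1 RNAi (edgeR adjusted p = 0.929 for dd_Smed_v4_478_0_1, 0.639 for dd_Smed_v4_756_0_1 and 0.840 for dd_Smed_v4_899_0_1). None was called after myoD RNAi (edgeR adjusted p = 0.801, 0.510 and 0.823 in the same order).

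Of the 50 contigs most like smedwi-1 over 24 animals, 48 were tested between the controls and 43 were called higher in the 12-feeding animals, with a median log2 fold change of 0.47 against −0.0074 over all contigs tested. Of the 50 most like prog-1, 48 were called higher (median 0.55), and of the 50 most like AGAT-1 also 48 (median 0.49). Among all contigs tested between the controls, 18.2% were called higher. After nkx1-1 RNAi edgeR called 1 contig of these lists, which was higher and in the list of prog-1, beside 3.87% of all contigs tested. After myoD RNAi it called 3, beside 7.53% of all contigs tested. Of these 3, 1 was higher and in the list of prog-1. The others were lower, 1 in the list of smedwi-1 and 1 in that of AGAT-1. The lists were picked by variation within these same groups, which enters the error of both RNAi tests. The few calls are therefore no result about RNAi. The lists shared 6 contigs between smedwi-1 and prog-1, 9 between prog-1 and AGAT-1 and 0 between smedwi-1 and AGAT-1, of 50 each.

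These lists rest in part on 12-feeding control replicate 3, whose deviation from its group runs along the difference between schedules. Without it, 24 of the 50 contigs most like smedwi-1 were called higher between the controls, 39 of those most like prog-1 and 43 of those most like AGAT-1, and 8, 20 and 28 of the original 50 remained. Over the 12 animals of the shorter schedule alone, the counts were 9 higher and 15 lower for smedwi-1, 25 and 1 for prog-1, and 27 and 7 for AGAT-1, beside 18.2% higher and 16.8% lower among all contigs. After nkx1-1 RNAi, edgeR called 2 higher and 3 lower of the 50 in that list for smedwi-1. It called 2 lower for prog-1 and 1 lower for AGAT-1, beside 3.87% of all contigs in either direction.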

How the data were processed

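The authors deposited raw read counts per contig of a transcript assembly for 24 libraries, and a table per RNAi comparison with normalised mean counts (a signal value), a linear fold change (ratio) and p-values, per the file headers. The kit for the libraries kept strand, per the labels' protocols. CASAVA, cutadapt 1.8, Bowtie 1.1.1, SAMtools and DESeq are named in the submitters' processing notes, without role or order. The strand setting of the counting is not given in the sources used here, and neither is how reads shared between similar contigs were treated.

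The main test was the quasi-likelihood F test of edgeR 4.0.16 (R 4.3.3) after default filterByExpr and TMM scaling, with Benjamini-Hochberg adjustment over all contigs tested and calls under 0.05. RNAi animals were fitted with controls of their schedule, and the difference of effects on 24 libraries. SE is the log2 fold change over the root of F. Alternatives used DESeq2 1.42.0, voom in limma 3.58.1, other scalings, no filter, libraries left out and the replicate number as a block. Log2 CPM used a prior count of 2. Scripts were tested on simulated data. No pair of libraries of a group was identical within sampling noise (chi-square per degree of freedom at least 4.18). Nothing in the labels says that animals came from separate cultures, so p-values set differences only against the spread between these libraries.

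The 3 markers were given as a list of contig IDs. Likeness was measured for every contig, the 2 most similar per marker are named and the 50 most similar are counted. Members, lists and tests were chosen with earlier results of these data known.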

Additional observations from a re-analysis of the deposited data

Results flagged for a closer look

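Gaps between the most extreme animal and the next were examined in 24 sets (12 of CPM and 12 of count ratios), and 2 passed the 95% limit of Dixon's test, where chance gives about 1 in 20 sets, or 1.2. Both concern the ratio of AGAT-1 to smedwi-1 counts. In 12-feeding control replicate 1 it was 0.422, below the 0.544 to 0.565 of the other 4 controls, in the animal with the highest smedwi-1 level of all 24, 888 CPM. In 10-feeding control replicate 2 it was 0.562, above the 0.509 to 0.525 of the other 5 controls.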

How the results depend on the processing

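The higher level of all 3 markers in the longer schedule was called under each of 21 alternatives per marker. Log2 fold changes were 0.50 to 0.69 for smedwi-1, 1.41 to 1.68 for prog-1 and 0.53 to 0.69 for AGAT-1. Not all of these compared only controls: nkx1-1 with myoD RNAi animals, which gave the 1.41, and the schedules averaged over RNAi and control are among them. Between the controls with 1 library left out, prog-1 ran from 1.43 to 1.68. Leaving out the libraries that stood apart was here the same fit as leaving out control replicate 3. No marker was called after either RNAi treatment, or in the difference of effects, under any alternative run (lowest adjusted p = 0.250, for prog-1 after nkx1-1 RNAi). Neither other scalings nor the library left out changed the side of the threshold of a correlation within groups, and no difference in log2 ratio moved by more than the SD between animals. Signs of uncalled values turned. After nkx1-1 RNAi, smedwi-1 was −0.041 without the libraries that stood apart, and AGAT-1 was 0.0095 with total count scaling. For the difference of effects without those libraries, smedwi-1 was −0.084, AGAT-1 −0.088 and prog-1, which kept its sign, −0.30. With voom they were −0.035 and −0.069, and AGAT-1 was −0.0032 without a filter. With 1 library left out, values after nkx1-1 RNAi ran from −0.044 to 0.15 for smedwi-1, −0.20 to 0.048 for prog-1 and −0.14 to 0.023 for AGAT-1, and differences of effects from −0.064 to 0.13 for smedwi-1, −0.26 to −0.016 for prog-1 and −0.082 to 0.072 for AGAT-1.

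The number of all contigs called after nkx1-1 RNAi, 643 (297 higher, 346 lower), was 348 with total count scaling (206 higher, 142 lower), 1032 with DESeq2, 976 with voom, 1849 in the joint fit of 24 libraries, and 214 to 947 with 1 library left out, moving by over 1.5 times without control replicate 2, 4 or 5 or nkx1-1 RNAi replicate 4, 5, 6 or 7. For the difference of effects, 73 became 154 with DESeq2, 130 with voom and 46 to 136 with 1 library left out, moving that far without 12-feeding control replicate 4, nkx1-1 RNAi replicate 1 or 2, 10-feeding control replicate 5 or myoD RNAi replicate 3. Averaged over RNAi and control, 9362 of 17159 contigs were called between schedules in 24 libraries. Between controls it was 5701 of 16262 in 11 libraries, so these counts come from tests of unlike size.

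Same-numbered animals share only a number: their deviations correlated at −0.14 to 0.013 in the nkx1-1 pair and −0.17 to 0.17 in the myoD pair. No nkx1-1 RNAi animal matched the control of its own number best, and of the myoD RNAi animals only replicates 2 and 4 did. With the replicate number as a block, prog-1 and AGAT-1 after nkx1-1 RNAi were 0.037 and 0.027, and 12 contigs were called there and 29 in the difference of effects. These fits kept only numbers present in every group compared, so nkx1-1 RNAi replicates 6 and 7 were left out. In the difference of effects, replicate 6 of the 10-feeding groups was left out too. What the block did apart from the missing libraries was not tested. The block changed no call of a marker.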
